A study of Mus musculus with 12 samples.

Results

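The 41 genes described here encode the machinery that copies DNA, from the origin recognition complex to the enzymes that supply nucleotides. They were chosen by name for that function and not by a measured value, though earlier results of these data were known. They are 41 of the 21938 protein-coding genes of the GENCODE M21 annotation of the mouse genome build mm10. Of all protein-coding genes, 12403 carried a peak of H3K4me3 at a promoter at day 0, and these serve as the background below. A promoter was the 1 kb either side of any transcript start of a gene, and a peak counted when it overlapped that window by 1 bp or more.

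The study profiled chromatin by CUT&RUN, in which a nuclease tethered by an antibody cuts the DNA beside its target and the fragments set free are sequenced. The cells were C2C12, an established line of mouse myoblasts that leaves the cell cycle and fuses into myotubes in medium poor in serum, here DMEM with 2% horse serum and antibiotics. The 4 cell states were day 0, day 1, day 5 myotubes and day 5 reserve cells, the last being cells that had not fused and were parted from the myotubes with mild trypsin. Antibodies against MBD2, a protein that binds methylated CpG sites and belongs to the NuRD complex, and against H3K4me3, the histone mark found at active promoters, gave 1 library each per state, so no difference between states has a replicate check and no test was run. The titles shorten the day 5 states to D5MT and D5RC, which were read as myotubes and reserve cells. All libraries came from a single cell line without a genetic change in the labels, and the 4 IgG samples were not analysed here.

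DNA replication begins when the origin recognition complex, with Cdc6 and Cdt1, loads the ring of Mcm2 to Mcm7 onto DNA before S phase. Cyclin E with its kinase, Mcm10, Cdc45 and the GINS complex then turn that ring into an active helicase, and polymerases, a sliding clamp and its loader follow it. Many genes of this machinery are known targets of E2F transcription factors, which are active in cycling cells and held back by the retinoblastoma family once myoblasts differentiate.

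Day 0 cells and myotubes matched their labels by their markers. All 4 myoblast markers carried H3K4me3 in every library. Of 8 myotube markers, 0 were marked at day 0, 8 at day 1, 8 in the myotubes and 7 in the reserve cells, so H3K4me3 did not part the reserve cells from the myotubes by these calls. Breadth did part them, as in Acta1, skeletal actin, with 9211 bp in the myotubes and 2007 bp in the reserve cells. Of 8 markers of other cell types, 0, 1, 1 and 0 were marked in the same order. The myotube H3K4me3 list stood apart, with 26034 peaks of median width 1217 bp and median fold enrichment 9.55, against 15920 to 19218 peaks, 1729 to 1936 bp and 29.0 to 39.8 in the other 3. The MBD2 lists shrank from 14948 peaks at day 0 to 452, 288 and 111. Depth in reads is not known from these files. Background coverage was estimated from the lists as the lowest value at any peak. For H3K4me3 it was 1.472 fragments at day 0, 1.255 at day 1, 1.223 in the myotubes and 1.082 in the reserve cells. For MBD2 it was 0.360, 0.286, 0.776 and 0.947 in the same order.

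Every one of the 41 replication genes kept an H3K4me3 promoter peak in every state. The mark was called at 56.5% of protein-coding promoters at day 0 and at 56.2%, 57.3% and 54.8% in the later libraries, in the order day 1, myotubes, reserve cells. Of the 12403 background genes, 1.86% lost the call at day 1, 2.77% in the myotubes and 4.12% in the reserve cells, so a loss at 0 of 41 genes is close to what most marked genes show. What differed between states was how much DNA the mark covered.

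Breadth was taken as the number of bases under H3K4me3 peaks within 5 kb of the 5′ end of a gene. Over the 41 genes its median was 3209 bp at day 0, 2507 bp at day 1, 1910 bp in the myotubes and 2091 bp in the reserve cells. Over all 12403 marked genes it was 2799, 2518, 2486 and 2169 bp in the same order. The replication genes thus began above the median of marked genes and ended below it in myotubes. Ranked within each library, their median percentile among marked genes went from 61.6 at day 0 to 49.6 at day 1, then 32.0 in the myotubes and 47.3 in the reserve cells.

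**Figure D1:**
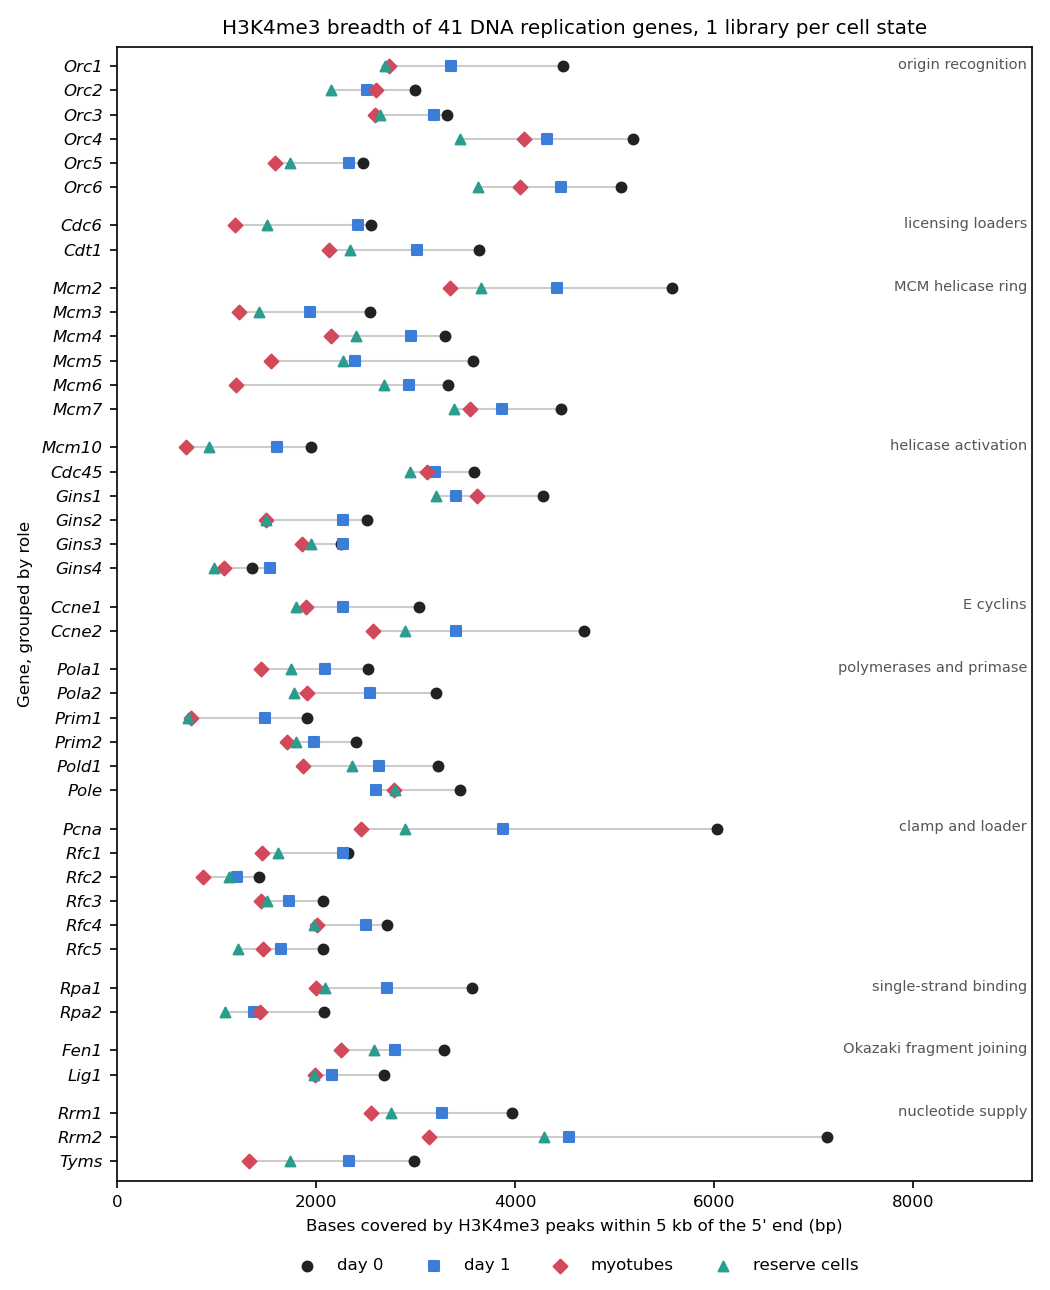
H3K4me3 breadth of each of the 41 genes in the 4 libraries, with bases covered within 5 kb of the 5′ end on the horizontal axis and genes grouped by role on the vertical axis; each symbol is 1 library. Day 0 is the broadest state for 39 of 41 genes, and the myotube and reserve cell values of all 41 lie below it.

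In myotubes all 41 genes were narrower than at day 0, where 69.0% of the background genes with covered bases in both libraries were. A ratio to day 0 of at most 1/1.5 was reached by 24 of 41 genes, against 13.0% of background genes, and a ratio of at least 1.5 by 0 of 41, against 6.13%. The median ratio was 0.629 for the replication genes, with a range from 0.357 to 0.869, and 0.898 for the background. In log2 units these medians were −0.67 and −0.16. With each breadth divided by its library's median over marked genes, 14 of 41 genes reached the limit, against 8.07% of background genes, and at a limit of 2 fold 9 did, against 4.32%. Among the 4085 background genes whose day 0 breadth lay between the quartiles of the replication genes, 2471 and 3640 bp, the share at or below 1/1.5 was 11.7%. Across the 41 genes the day 0 breadth and the log2 ratio had a Spearman rho of −0.0005, which shows no trend with day 0 breadth in either direction. That value describes 41 genes of the same pair of libraries.

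**Figure D2:**
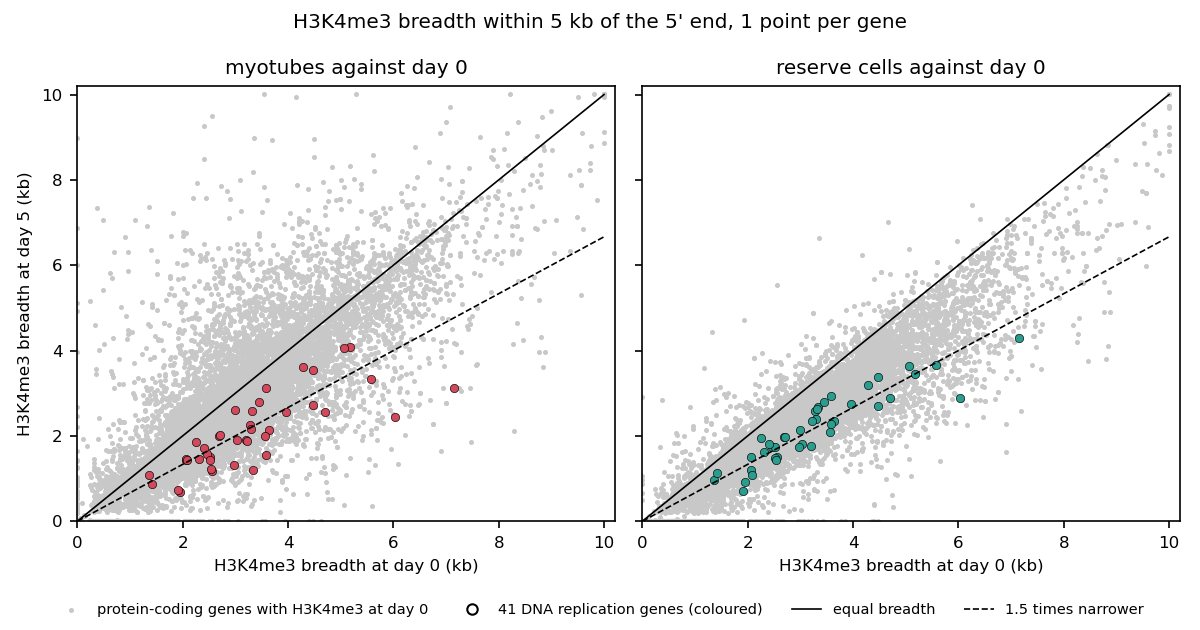
H3K4me3 breadth in kb at day 0 on the horizontal axis against myotubes (left) and reserve cells (right) on the vertical axis; grey points are the protein-coding genes with H3K4me3 at day 0 and coloured points the 41 replication genes, with a solid line at equal breadth and a dashed line at 1.5 times narrower. The grey cloud lies about the solid line in myotubes, where 24 coloured points fall on or below the dashed line, and mostly below the solid line in reserve cells.

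At day 1 the same genes had moved less far. The ratio to day 0 was below 1 for 39 of 41 genes, against 80.0% of the background, and at most 1/1.5 for 3, against 5.06%, while 0 had a ratio of at least 1.5, against 0.955%. Those 3 were Rrm2, Pcna and Rpa2, with 0.635, 0.644 and 0.663. Gins3 and Gins4, subunits of the GINS complex, were the 2 exceptions with ratios of 1.01 and 1.13. In reserve cells all 41 ratios were below 1, as were 94.0% of background ratios, and 19 of 41 were at most 1/1.5, against 19.2%, with 0 at 1.5 or more, against 0.658%. The median ratio there was 0.694 over the replication genes and 0.787 over the background. Divided by the library medians, 3 of 41 genes reached the limit in reserve cells, against 5.08% of background genes. The day 1, myotube and reserve cell ratios share the day 0 library.

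Called width also depends on signal height. The median fold enrichment of the strongest promoter peak, a value from the authors' peak caller that is compared here only within a list, was 52.5 for the replication genes and 46.9 for all marked genes at day 0. It was 56.3 against 57.2 at day 1, 27.1 against 36.2 in the myotubes and 43.7 against 53.7 in the reserve cells. In myotubes the genes with higher fold also had broader marks, with a Spearman rho of 0.604 over the 41 genes, and the part of height in the breadth was not tested. The count of narrowed genes in myotubes was again 24 of 41 with the strongest 15920 peaks of each list, against 12.3% of background genes. That choice drops whole weaker peaks and leaves the edges of the kept ones as they were, so it cannot address height. A mark that shrank in every cell and a mark lost from some of the cells cannot be told apart in such libraries.

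Origin recognition genes were among the less changed. Orc1 to Orc6 encode the complex that binds origins, and their median ratio of myotube to day 0 breadth was 0.785, with 2 of 6 genes, Orc1 and Orc5, at or below 1/1.5. Orc2 had the highest ratio of all 41 genes, 0.869, with 2996 bp at day 0, 2507 bp at day 1, 2603 bp in the myotubes and 2147 bp in the reserve cells. The other 5 covered 2471 to 5183 bp at day 0 and 1586 to 4092 bp in myotubes. Orc4 was the broadest of the 41 genes in myotubes.

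The loaders Cdc6 and Cdt1 both narrowed. Cdc6, the ATPase that joins the origin complex to load the ring, covered 2554 bp at day 0 and 2422 bp at day 1, then 1189 bp in the myotubes and 1503 bp in the reserve cells, a myotube ratio of 0.466. Cdt1, which brings the ring to the origin, covered 3640, 3013, 2131 and 2339 bp, a ratio of 0.585. In both, reserve cells lay a little above myotubes and both day 5 states lay below day 1.

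The ring genes Mcm2 to Mcm7 had a median ratio of 0.540 in myotubes, and 5 of 6 were at or below 1/1.5. Mcm6 covered 3328 bp at day 0, 2937 bp at day 1, 1197 bp in the myotubes and 2680 bp in the reserve cells, so that the myotube library alone was low. Its myotube ratio of 0.360 was the second lowest of the 41 genes. Mcm5 went from 3577 bp to 2387, 1543 and 2271 bp, a ratio of 0.431 in myotubes, and Mcm3 reached 0.482. Mcm2 covered 5581, 4418, 3344 and 3660 bp, of which 3089 bp at day 0 and 2670 bp in myotubes lay upstream. The peak over the Mcm2 start itself was 2875 bp long at day 0 and 740 bp in myotubes. Mcm4 covered 3299, 2950, 2154 and 2401 bp, just inside the limit with a ratio of 0.653. Mcm7, with 4468, 3870, 3548 and 3382 bp and a ratio of 0.794, was the ring gene that changed least.

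Promoter letters of these origin, loader and ring genes show a feature that the choice of genes did not use. The 4 E2F-type motifs, TTTCCCGC, TTTCGCGC, TTTGCCGC and TTTGGCGC, were searched on both strands in the RefSeq promoters of GRCm38.p6, which is the mm10 assembly and gives 250 bases before and 50 after a start. That set held 33 of the 41 genes, and 12 of these 33 (36.4%) had a match, against 4.36% of 9688 promoters of marked genes and 2.95% of all 16522 protein-coding promoters in the set. Of the 13 origin, loader and ring genes held there, 8 had a match, and 30 bases round their first match follow, 5′ to 3′ on the strand of the gene with the matched letters in capitals.
Orc1 (chr4:108579416-108579445, plus strand): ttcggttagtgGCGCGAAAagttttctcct
Orc3 (chr4:34614965-34614994, minus strand): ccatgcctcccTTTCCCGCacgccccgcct
Cdc6 (chr11:98908002-98908031, plus strand): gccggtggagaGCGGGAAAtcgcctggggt
Cdt1 (chr8:122568035-122568064, plus strand): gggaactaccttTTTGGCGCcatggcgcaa
Mcm3 (chr1:20820275-20820304, minus strand): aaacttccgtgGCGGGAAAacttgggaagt
Mcm5 (chr8:75109345-75109374, plus strand): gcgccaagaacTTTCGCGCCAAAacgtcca
Mcm6 (chr1:128359797-128359826, minus strand): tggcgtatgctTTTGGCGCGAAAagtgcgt
Mcm7 (chr5:138172030-138172059, minus strand): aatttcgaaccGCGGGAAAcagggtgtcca
In Mcm5 and Mcm6 the capitals are longer because 2 matches overlap there and share letters, TTTCGCGC and TTTGGCGC, each read on its own strand. The remaining 4 genes with a match were Gins3, Pola1, Pold1 and Rfc3. A match is a string of letters and does not show that a factor was bound.

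Other motifs were counted in the same windows. CCAAT, the NF-Y motif, was in 21 of 33 promoters (63.6%), against 39.1% of marked promoters. GGGCGG, the Sp1 motif, was in 23 (69.7%), against 67.5%, and TTTGAA, known as the cell cycle homology region, in 4 (12.1%), against 11.2%. The median number of CpG sites per promoter was 23 for the replication genes and 22 for marked promoters. The 12 genes with an E2F-type match had a median myotube ratio of 0.582, with 8 at or below 1/1.5. The 21 without had a median of 0.642, with 12 at or below it. The ranges of both sets, 0.360 to 0.827 and 0.357 to 0.869, overlapped almost wholly.

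Helicase activators ranged widely. Mcm10, which is needed to start the loaded helicase, had the lowest ratio of the 41 genes, 0.357, with 1950 bp at day 0, 1609 bp at day 1, 696 bp in the myotubes and 923 bp in the reserve cells. Cdc45, a partner of the ring in the active helicase, had 3590, 3196, 3114 and 2943 bp and a ratio of 0.867, the second highest. Of the GINS subunits, which complete that helicase, Gins1 covered 4286, 3411, 3618 and 3204 bp and Gins3 2252, 2274, 1863 and 1952 bp, with ratios of 0.844 and 0.827. The Gins1 values do not describe its own promoter mark well, because the 5′ end of its gene record lies more than 4 kb upstream of the start of its basic transcript and most of the bases counted belong to another peak. The H3K4me3 peak at the Gins1 start itself was 2126 bp long at day 0, 1768 bp at day 1, 1446 bp in the myotubes and 1680 bp in the reserve cells. Gins2 went from 2510 and 2266 bp to 1496 bp in the myotubes and 1492 bp in the reserve cells, a ratio of 0.596. Gins4 was the narrowest gene at day 0, with 1360 bp, and had 1078 bp in myotubes. The median ratio of these 6 genes was 0.810, and Mcm10 and Gins2 were the 2 at or below 1/1.5. That median includes the Gins1 ratio of 0.844, counted mostly from another peak.

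The E cyclins, which activate Cdk2 at the entry to S phase, both narrowed. Ccne1 covered 3039 bp at day 0, 2275 bp at day 1, 1896 bp in the myotubes and 1802 bp in the reserve cells, a myotube ratio of 0.624. Ccne2 had a ratio of 0.548.

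Among polymerases and primase the median myotube ratio was 0.587, and 4 of 6 genes were at or below 1/1.5. Prim1, the catalytic subunit of primase, covered 1908 bp at day 0, 1487 bp at day 1, 744 bp in the myotubes and 709 bp in the reserve cells. Its ratio was 0.390 in myotubes and 0.372 in reserve cells, the lowest reserve cell ratio of the 41 genes. Prim2, the large primase subunit, and Pole, the catalytic subunit of polymerase epsilon, stayed above the limit with 0.711 and 0.807. Pola1, Pola2 and Pold1, of polymerases alpha and delta, lay between 0.571 and 0.595. The Pold1 breadth, 3229 bp at day 0 and 1871 bp in myotubes, includes bases of another peak upstream. The peak over the Pold1 start itself was 2021 bp long at day 0 and 975 bp in myotubes.

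Pcna encodes the sliding clamp that holds polymerases on DNA. It covered 6028 bp at day 0, 3879 bp at day 1, 2451 bp in the myotubes and 2895 bp in the reserve cells, a ratio of 0.407 in myotubes. The 5 subunits of its loader, Rfc1 to Rfc5, were narrow already at day 0, between 1424 and 2710 bp, and had ratios from 0.609 to 0.743. Rfc1 and Rfc2 were the loader genes at or below 1/1.5, and Rfc5 covered 2066, 1646, 1470 and 1213 bp.

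Single-strand binding and fragment joining genes changed by intermediate amounts. Rpa2, a subunit of the protein that coats single-stranded DNA, covered 2075 bp at day 0, 1375 bp at day 1, 1435 bp in the myotubes and 1086 bp in the reserve cells, with a myotube ratio of 0.692. Its partner Rpa1 had a ratio of 0.560. Fen1, the flap nuclease, and Lig1, the ligase of Okazaki fragments, had 0.685 and 0.740 and were both above the limit.

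The 3 genes of nucleotide supply had the lowest median of any role, 0.445, and all were at or below 1/1.5 in myotubes. Rrm2, the small subunit of ribonucleotide reductase whose level follows S phase, was the broadest of the 41 genes at day 0 with 7143 bp, and then covered 4539 bp at day 1, 3134 bp in the myotubes and 4292 bp in the reserve cells. Its day 0 mark filled all 5000 bp downstream of the start, so the window cut it on that side. The cut was small, as the whole day 0 peak was 7293 bp long. The myotube ratio was 0.439. Tyms, thymidylate synthase, covered 2983, 2326, 1328 and 1742 bp, a ratio of 0.445. Rrm1, the large reductase subunit, had a ratio of 0.644.

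The bases lost lay mainly inside the genes. Downstream of the 5′ end the median breadth of the replication genes was 1898 bp at day 0, 1510 bp at day 1, 961 bp in the myotubes and 1220 bp in the reserve cells, whereas upstream it was 1099, 999, 930 and 756 bp. For all marked genes the downstream medians were 1764, 1592, 1537 and 1366 bp. From day 0 to myotubes 40 of 41 genes lost more bases downstream than upstream, against 54.5% of marked genes. The exception was Gins1, measured from a record end away from its own peak, and with the outermost start among basic transcripts in place of that end the count was 41 of 41, against 54.9%. At day 1 the count was 33 of 41, against 52.5%, and in reserve cells 39 of 41, against 61.1%. Counted from the recorded 5′ end, Rfc2 and Lig1 had 0 upstream bases in every library, so their losses could only count as downstream. Upstream bases at day 0 were present in 39 of 41 replication genes and 11308 of 12403 marked genes.

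Measured as ratios, the downstream bases in myotubes were at most 1/1.5 of day 0 in 32 of 41 genes, against 15.9% of marked genes, with a median ratio of 0.490. Upstream, 5 of the 39 genes with upstream bases passed that limit, against 18.3%, with a median of 0.862. In Rfc2 and Lig1 the peak began downstream of the recorded 5′ end, so they had 0 upstream bases in every library. The ring genes had a downstream median of 0.336 and an upstream median of 0.831. In Mcm6 the downstream bases numbered 2787 at day 0, 2454 at day 1, 702 in the myotubes and 2167 in the reserve cells, while the upstream bases numbered 540, 482, 494 and 512. Cdc6 had 2139, 1999, 551 and 1132 bases downstream and 414, 422, 637 and 370 upstream, so that its upstream mark was longest in myotubes. Pcna had 4695, 2708, 1415 and 1849 bases downstream and 1332, 1170, 1035 and 1045 upstream. In reserve cells 26 of 41 genes passed the limit downstream, against 19.9%, and 15 of 39 upstream, against 30.4%. At day 1 it was 8 of 41 downstream, against 5.94%, and 3 of 39 upstream, against 13.7%.

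**Figure D3:**
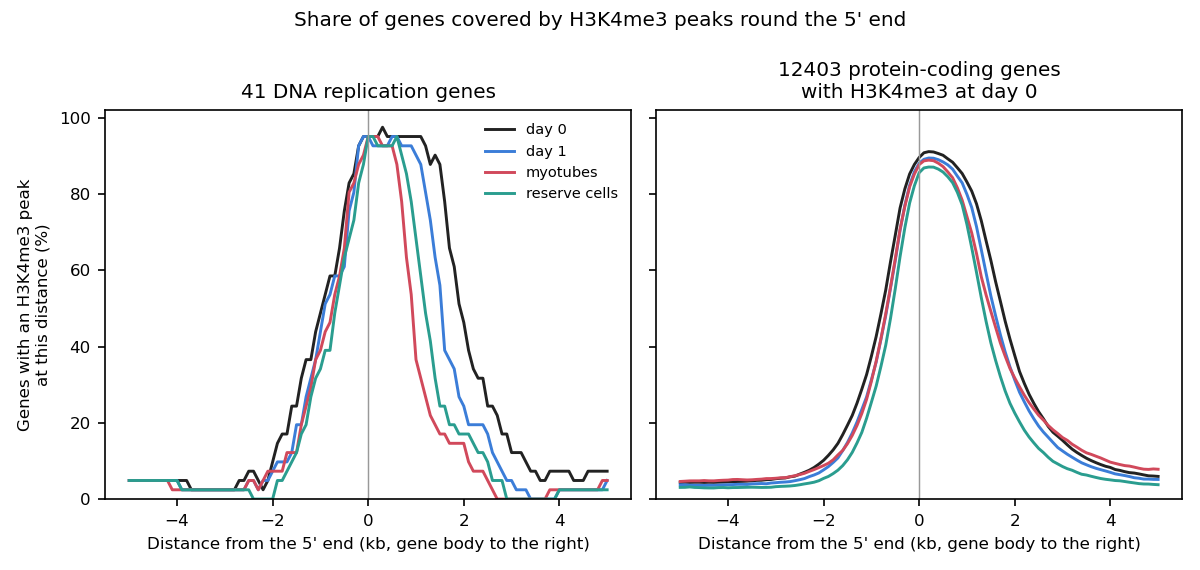
Share of genes (%) covered by an H3K4me3 peak at each distance in kb from the 5′ end, gene body to the right, for the 41 replication genes (left) and the 12403 marked protein-coding genes (right); each line is 1 library. On the left the lines part to the right of the start, and at 1 kb inside the gene 95.1% of replication genes were covered at day 0, 90.2% at day 1, 36.6% in the myotubes and 68.3% in the reserve cells, against 83.2%, 79.9%, 74.1% and 72.0% of marked genes.

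**Figure D4:**
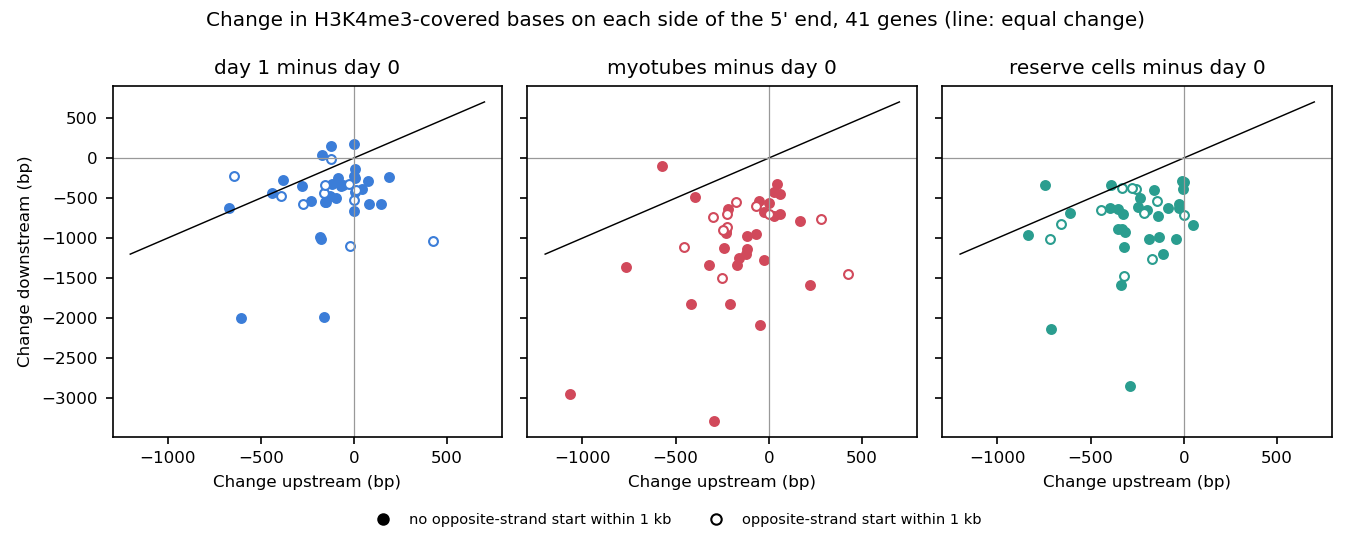
Change from day 0 in bases covered by H3K4me3 upstream (horizontal) and downstream (vertical) of the 5′ end for the 41 genes in the day 1, myotube and reserve cell libraries; open symbols are the 11 genes with an opposite-strand protein-coding start within 1 kb, and the line marks equal change. In myotubes 40 points lie below the line.

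Among these 41 genes, a neighbour on the other strand went with a smaller change. Of the 41 genes, 11 have the start of another protein-coding gene on the opposite strand within 1 kb, among them Orc6 with Vps35 at 11 bp, Orc3 with Rars2 at 13 bp, Fen1 with Tmem258 at 54 bp and Cdc45 with Ufd1 at 140 bp. The others were Orc1, Orc4, Mcm4, Mcm7, Pole, Rpa1 and Lig1. In these 11 the median myotube ratio was 0.781 and 3 were at or below 1/1.5, while in the other 30 the median was 0.598 and 21 were. The downstream medians were 0.604 and 0.458. Bases marked for the neighbour count in the breadth of such a gene, and their part in the difference was not tested. The same split was not made over all marked genes, so the difference cannot be called particular to these genes.

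Reserve cells and myotubes came from the same day and differed in the breadth of these genes. Reserve cell breadth was below that of myotubes in 16 of 41 replication genes, against 75.1% of background genes, and the median ratio of reserve cells to myotubes was 1.05, against 0.887. In log2 units these medians were 0.07 and −0.17. Mcm6 was the 1 gene with a ratio of at least 1.5, reached by 2.71% of background genes, with 2680 bp against 1197 bp. The next highest were Mcm5 (1.47), Rrm2 (1.37), Mcm10 (1.33), Tyms (1.31) and Rfc2 (1.30).

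MBD2 was called at the promoters of 11 of the 41 genes at day 0 (26.8%), against 19.0% of marked genes. At day 1 it was called at 0, against 1.69%, in myotubes at 1, against 0.976%, and in reserve cells at 0, against 0.355%. The gene with MBD2 in myotubes was Mcm7. The drop after day 0 runs along with the shorter MBD2 lists of the later states and cannot be told apart from it. With 111 peaks taken from each list, the length of the shortest, 0 of the 41 genes had MBD2 in any state.

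By role, MBD2 at day 0 fell on 3 of 6 ring genes, 3 of 6 helicase activators, 2 of 6 clamp and loader genes, 1 of 2 single-strand binding genes, 1 of 2 loaders and 1 of 6 origin recognition genes. It was called at 0 of the 6 polymerase and primase genes, the 2 E cyclins, the 2 fragment joining genes and the 3 nucleotide genes. With 19.0% of marked genes called, groups of 2 to 6 genes are too small to tell roles apart. Cdc45 had the highest fold enrichment, 10.6, in a peak of 570 bp (chr16:18811667-18812236) with 18 fragments at the summit, 67 bp inside the gene from the nearest start. Mcm7 followed with 10.04 and 13 fragments (chr5:138171970-138172331), and its myotube peak (chr5:138171714-138172095) had a fold of 5.63 and 9 fragments. The summits of the Mcm7 peaks in both states lay 202 and 194 bp from a start. Next came Rpa2 (6.62), Mcm6 (5.88), Gins2 (5.74), Gins1 (5.15), Orc2 (5.01), Mcm4 (4.30), Rfc5 (4.07), Pcna (3.68) and Cdt1 (3.68).

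Fragment counts at these peaks were low. Their summits held 4 to 18 fragments with a median of 6, and 4 of the 11, at Cdt1, Mcm4, Pcna and Rfc5, held 5 or fewer. The median fold was 5.15, against 5.88 over all marked genes with MBD2 at day 0. All 11 overlapped the H3K4me3 peak of the same state, and 8 of 11 summits lay within 200 bp of a start. Neither count was made over all marked genes with MBD2, so neither can be called particular to these genes. Overlap is also favoured by the choice of peaks, since each lay at a promoter that carried H3K4me3. The lists also had 10 MBD2 peaks in or near 9 of the genes but away from their promoters at day 0, the strongest inside Pola2 (12.2) and Cdc45 (11.5). Peaks less than 5 kb upstream of Ccne1 (7.35 at day 0, 8.97 at day 1) and Pold1 (5.02 and 4.49) were the 2 that were called again after day 0.

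**Figure D5:**
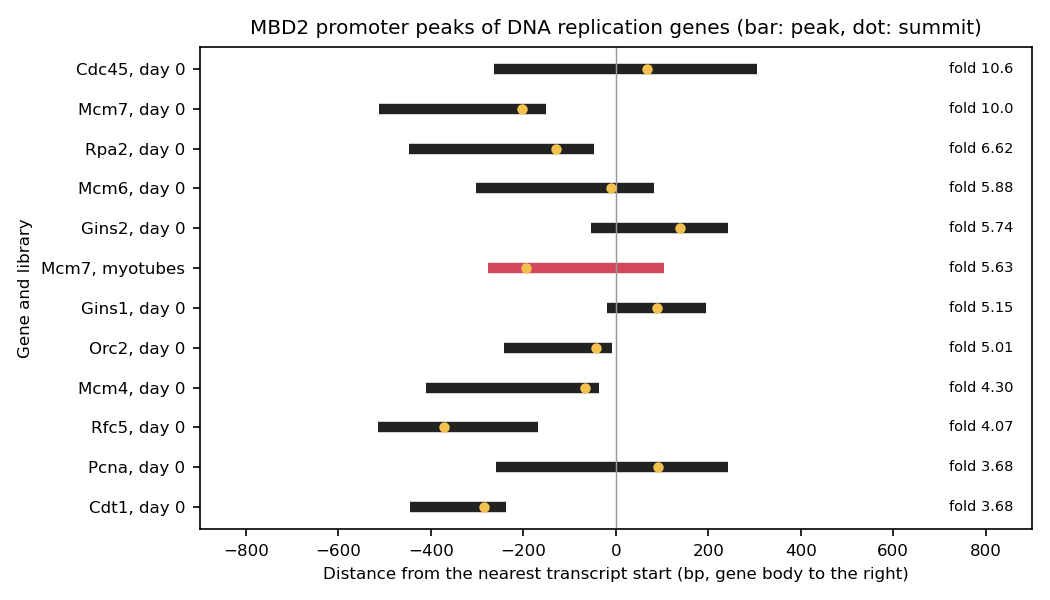
MBD2 promoter peaks of replication genes as bars, with the summit as a dot, against the distance in bp from the nearest transcript start; day 0 peaks are dark and the Mcm7 peak of myotubes is red, with the fold enrichment of the authors' lists at the right. All 12 summits lie within 400 bp of a start, and the bars of Cdc45, Mcm6, Gins1, Gins2, Pcna and of Mcm7 in myotubes span it.

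The promoters differ in CpG content under MBD2. The 11 promoter peaks held a median of 6.93 CpG sites per 100 bp, from 2.30 at Rfc5 to 9.68 at Gins1, whereas the 10 other peaks held 1.43 and all 14948 day 0 MBD2 peaks 1.24. MBD2 peaks at the promoters of other marked genes were not measured in this way. Per RefSeq promoter the median was 22.5 CpG sites in 8 replication genes with MBD2 at day 0 and 23 in 25 without. For marked genes it was 21 with MBD2 and 22 without. Upstream stretches of 3 of these genes are given to show what lay under the peaks, from the same RefSeq set. They run 5′ to 3′ on the strand of the gene, without exonic bases of the basic GENCODE transcripts. The gene records of Cdc45 and Rpa2 start earlier, so the last bases of those stretches lie inside them. Capitals mark E2F-type matches and CCAAT, here read in reverse as ATTGG in every case.
Cdc45 (chr16:18811973-18812222, minus strand): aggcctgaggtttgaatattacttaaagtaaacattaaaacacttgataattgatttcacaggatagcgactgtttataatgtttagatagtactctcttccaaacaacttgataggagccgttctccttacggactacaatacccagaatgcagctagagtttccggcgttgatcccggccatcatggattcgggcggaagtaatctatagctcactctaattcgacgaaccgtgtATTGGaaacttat
Rpa2 (chr4:132768110-132768334, plus strand): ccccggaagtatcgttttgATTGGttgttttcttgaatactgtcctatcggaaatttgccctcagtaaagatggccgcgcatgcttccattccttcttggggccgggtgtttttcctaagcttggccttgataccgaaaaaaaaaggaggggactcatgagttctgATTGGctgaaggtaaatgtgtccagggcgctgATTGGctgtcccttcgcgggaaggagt
Mcm6 (chr1:128359706-128359955, minus strand): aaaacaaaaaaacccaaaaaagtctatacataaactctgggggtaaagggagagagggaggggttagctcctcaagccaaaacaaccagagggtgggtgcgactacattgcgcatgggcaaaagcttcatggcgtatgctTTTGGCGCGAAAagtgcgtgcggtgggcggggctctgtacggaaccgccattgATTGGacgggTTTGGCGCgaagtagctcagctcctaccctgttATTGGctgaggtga
The Cdc45 stretch of 250 bases has 0 E2F-type matches, 1 CCAAT match and 11 CpG sites. That of Rpa2, 225 bases, has 0, 3 and 10, and that of Mcm6, 250 bases, has 3, 2 and 13. The Mcm6 peak (chr1:128359581-128359966) covers the whole of its stretch, as does that of Cdc45.

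Genes with and without MBD2 at day 0 narrowed to overlapping degrees. The median myotube ratio was 0.692 in the 11 genes with MBD2, of which 5 were at or below 1/1.5, and 0.617 in the 30 without, of which 19 were. Mcm6 (0.360) and Pcna (0.407) were among the lowest ratios and Orc2 (0.869) and Cdc45 (0.867) were the highest of all, and each of these 4 had MBD2 at day 0.

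Other genes of the same pathway gave similar counts. A list of 42 further replication genes, among them remaining polymerase subunits, checkpoint factors and chromatin assembly factors, kept H3K4me3 at all 42 promoters in all 4 libraries. Of the 39 with bases covered near the 5′ end, 23 were at or below 1/1.5 in myotubes with a median of 0.644, led by Clspn (0.333), a mediator of the replication checkpoint, and Tk1 (0.339), thymidine kinase. The highest ratios were those of Top1 (1.17), the topoisomerase, and Pold4 (1.02). In reserve cells 17 of 39 were at or below 1/1.5. MBD2 was called at 11 of the 42 at day 0 (26.2%). The fold was 35.0 at the histone chaperone gene Asf1b and 31.6 at Chtf18, a subunit of another clamp loader.

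Mitosis genes narrowed further and constitutive genes less. Of 29 mitosis genes with a ratio, 25 were at or below 1/1.5 in myotubes with a median of 0.514, the lowest being Cdc20 (0.249), an activator of the anaphase-promoting complex, and Cenpf (0.310), a kinetochore protein. Ccnb2, a B cyclin, had no covered base in myotubes and was the 1 gene of these lists to lose its promoter call there. The median ratio of reserve cells to myotubes was 1.33 for mitosis genes, against 1.05 for the 41 replication genes. Of 20 constitutive genes 2 were at or below 1/1.5 in myotubes, with a median of 0.901, and their reserve cell to myotube median was 0.841. MBD2 was called at day 0 at 8 of 30 mitosis genes and 5 of 20 constitutive genes.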

How the data were processed

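CUT&RUN peaks of MBD2 and H3K4me3 were analysed, 8 lists of 1 library each. The submitters' processing notes name Trim Galore, Bowtie2, SAMtools and MACS2 and the build mm10, which the series' design text gives as the steps of trimming, mapping, filtering and peak calling. Not given in the sources used here are versions, settings, read totals and whether IgG served as a control. The authors' pileup column is a signal, the fragments over a summit. Their fold column, per the file headers, is the ratio of pileup to local background. Columns of the deposited −log10 p-value and of the −log10 q-value had damaged names and were told by their place. The q-values only rank peaks.

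Peaks of chromosomes 1 to 19, X and Y were then set against the starts of basic GENCODE M21 transcripts, and breadth was counted round the 5′ end of the gene record with Python 3.11.15, pandas 2.3.3, numpy 2.4.6 and scipy 1.17.1. Ratios use genes with bases covered in both libraries. The counting was tested on simulated data, with a single peak centred on the 5′ end of genes far from other genes. Neighbouring peaks and gene records that begin away from their peak, as at Gins1, were not simulated. The members, gene lists and rules were chosen with earlier results of these data known. Genes given in full are those with MBD2 at a promoter, the 6 lowest and 4 highest myotube ratios, and Pcna, Mcm2, Cdc6, Cdt1, Ccne1, Rrm2 and Tyms. Any other gene singled out was chosen after its values were seen. Of the 41 genes, Mcm4, Gins1, Gins2, Gins4, Ccne2, Prim2, Pole and Rfc2 had no match in the promoter list. Alternatives changed the windows, the overlap, the number of peaks, the fold limit, the scaling and the annotation.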

Additional observations from a re-analysis of the deposited data

How the results depend on the processing

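Of 154 alternative values, 137 stayed within 1.5 times of the reported value and 17 moved further. By the rule used only the median log2 ratios could change direction, and 0 did. The limit was wide for these medians. That of reserve cells over day 0, −0.53, counted as within it at −0.16 after division by the library medians, against 0.02 for the background. Calling a change at 2 fold gave 0 narrowed genes at day 1, 9 in the myotubes and 3 in the reserve cells, against 1.37%, 4.32% and 4.49% of background genes. Breadth divided by each library's median over marked genes gave 0, 14 and 3, against 2.77%, 8.07% and 5.08%, and 5 genes broader in reserve cells than in myotubes, against 4.80%. Bases within 2 kb gave 1 narrowed gene at day 1 (background 3.73%) and 2 broader in reserve cells than in myotubes (2.34%). Equal numbers of peaks gave 2 such broader genes (2.215%), and the length of the strongest promoter peak gave 3 (3.31%). Keeping the stronger 50% of each list left H3K4me3 at 23 of 41 promoters in reserve cells (39.2% of all promoters) and 12 narrowed genes there (14.2%). It left MBD2 at 4 promoters at day 0 (10.08%) and 0 in myotubes (0.4999%). Equal numbers of MBD2 peaks left 0 promoters at day 0 (0.508%) and 0 in myotubes (0.355%). In each of these cases the cause was not tested. Under the other settings over all 41 genes, 19 to 24 narrowed in myotubes, the lowest count coming from bases within 2 kb (background 10.3%). Of the 30 genes without an opposite start, 21 narrowed, against 13.0% of background genes. With an outer start among basic transcripts, 41 of 41 genes lost more downstream than upstream in myotubes. That start, the other transcript set, peak length, the genes without an opposite start and the side counts were chosen after seeing the data. No paired analysis was possible because each state has 1 library per antibody and the labels carry no replicate numbers. MBD2 peaks of 4 to 18 fragments limit what its absence at a promoter can show.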
